A study of Mus musculus with 9 samples.

Results

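Cartilage collagens were examined in mouse skeletal stem cells that were sorted from the femoral fracture callus. The 7 genes Col2a1, Col9a1, Col9a2, Col9a3, Col11a1, Col11a2 and Col27a1 were chosen by symbol, and each was found as 1 of the 53607 rows of the deposited table. Tests were limited to the 14501 rows that reached 1 TPM in 3 or more libraries, and all 7 genes passed that filter. TPM is a relative abundance per transcript length, with a total of 1000000 in each library. The mice were C57BL/6J of 2, 12 and 24 months (3 libraries per age), all with a femoral fracture 10 days old and with no treatment named by the labels. No uninjured group and no genetic change is named. The cells were gated as positive for ITGAV (integrin alpha V) and as lacking CD45, TER119 and TIE2 as well as THY1, 6C3 and CD105, with 500 to 1000 cells per sample. Whether an age's samples are from different mice is not said, and the p-values then reflect no more than the library-to-library spread, which may be technical.

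Collagen II is the main fibril protein of cartilage, built from identical chains encoded by Col2a1. Collagen XI, from Col11a1 and Col11a2 with a chain that is itself a product of Col2a1, lies inside the fibril and limits its width. Collagen IX, a heterotrimer of the Col9a1, Col9a2 and Col9a3 chains in equal number, sits on the fibril surface and links it to other matrix proteins. Collagen XXVII, from Col27a1, is a fibrillar collagen of developing and growth plate cartilage. A fracture callus passes through a cartilage stage that is later replaced by bone, and these genes are widely used as markers of that stage.

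The genes share a signature in their exons. The collagen triple helix is a Gly-X-Y repeat, and many of its exons hold 54 bases, which start with a whole glycine codon. In the annotated principal transcripts (GENCODE release M21 on GRCm38), 24 of 52 whole coding exons of Col2a1 had this length, and so did 31 of 65 in Col11a1, 31 of 64 in Col11a2 and 33 of 59 in Col27a1. In Col9a1 it was 14 of 36, and in Col9a2 and Col9a3 14 of 30 each. Over all annotated coding genes, 0.671% of coding segments had 54 bases, and 17 of the 18 genes with 10 or more such segments were collagens. One such exon is printed for each gene, 5′ to 3′, because it shows the repeat that the chains have in common. It is the first exon of 54 bases whose glycine codons recur at every step of 9 bases, and capitals mark those codons.
Col2a1: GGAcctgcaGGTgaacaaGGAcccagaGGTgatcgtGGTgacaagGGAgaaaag
Col9a1: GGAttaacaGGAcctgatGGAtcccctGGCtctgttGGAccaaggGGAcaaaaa
Col9a2: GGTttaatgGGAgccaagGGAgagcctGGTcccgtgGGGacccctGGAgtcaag
Col9a3: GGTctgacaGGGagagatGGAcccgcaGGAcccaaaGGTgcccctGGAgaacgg
Col11a1: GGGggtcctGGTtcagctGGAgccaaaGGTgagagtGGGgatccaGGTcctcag
Col11a2: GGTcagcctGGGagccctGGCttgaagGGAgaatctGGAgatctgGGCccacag
Col27a1: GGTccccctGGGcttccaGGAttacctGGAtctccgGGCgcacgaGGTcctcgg
These are exon 6 of Col2a1 (chr15:97998545-97998598, minus strand), exon 11 of Col9a1 (chr1:24202014-24202067), exon 5 of Col9a2 (chr4:121043696-121043749) and exon 6 of Col9a3 (chr2:180601582-180601635), the last 3 on the plus strand. The others are exon 15 of Col11a1 (chr3:114108281-114108334), exon 15 of Col11a2 (chr17:34051480-34051533) and exon 4 of Col27a1 (chr4:63231792-63231845), all on the plus strand. The genes lie on 6 chromosomes, and Col9a2 and Col27a1 share chromosome 4. The table gives 1 value per gene, so splice forms, such as the forms of Col2a1 with and without exon 2, were not separated.

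Promoter sequence from RefSeq (GRCm38.p6) was available for 5 of the 7 genes, with 2 start sites for Col9a1. Col9a1 is known to use its upstream start in cartilage and the downstream start in other tissues. The 250 bases before the upstream start of Col9a1 and before the start of Col11a2 are shown as a pair of cartilage promoters of unlike composition, 43.6% and 57.6% G and C. Capitals mark GGGCGG, to which SP factors bind, or TATAAA, a core promoter motif, on either strand.
Col9a1, chr1:24177360-24177609, plus strand: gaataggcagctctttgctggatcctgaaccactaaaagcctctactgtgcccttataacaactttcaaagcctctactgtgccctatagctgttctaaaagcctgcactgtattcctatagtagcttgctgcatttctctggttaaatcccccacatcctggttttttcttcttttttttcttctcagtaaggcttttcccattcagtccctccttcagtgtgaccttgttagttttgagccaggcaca
Col11a2, chr17:34038888-34039137, plus strand: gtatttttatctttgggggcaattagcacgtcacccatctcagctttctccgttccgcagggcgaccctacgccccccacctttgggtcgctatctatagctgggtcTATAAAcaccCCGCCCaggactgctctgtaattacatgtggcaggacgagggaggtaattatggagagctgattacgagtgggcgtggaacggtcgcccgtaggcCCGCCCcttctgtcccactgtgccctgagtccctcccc
The Col11a2 window held 1 TATAAA and 2 GGGCGG, and the Col9a1 window held neither. GGGCGG was also found in the windows of Col9a2 (2), Col11a1 (2) and Col27a1 (1), and in 32.7% of all 32851 promoter windows of this length, where TATAAA was found in 12.4%. The letters ACAAAG and ACAATG, forms of the core that SOX proteins bind, were in none of the 6 windows of these genes, and in 16.5% and 10.7% of all windows. Forms that begin with T were not searched. TCAAAG is in the Col9a1 window printed above and, on the other strand, in the Col9a2 window. The motifs do not overlap in sequence, and a match or its absence describes only these letters in this window.

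One library bears on all that follows: library 3 of 24 months was the highest of its age for all 7 genes, so results at 24 months are also given without it. As the values of these same genes singled it out, results without it describe its weight and are no independent support. Libraries are numbered by their place in the table within an age. Of the gated-out cells, the 6 endothelial markers summed to 7.77 to 19.1 TPM and the 6 myeloid markers to 8.84 to 35.2 TPM over the 9 libraries, with 3 of each list reaching 1 TPM. Erg alone was at 3.34 to 13.6 TPM of the endothelial sum, while Cdh5, Kdr and Tek stayed below 1 TPM in every library. The 4 erythroid markers, of which 3 reached 1 TPM, summed to 40.7 to 461 TPM. Nearly all of that was haemoglobin (Hbb-bs at 29.8 to 366 TPM).

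Col2a1 (ENSMUSG00000022483.17, chromosome 15, 97975602 to 98004695, minus strand) was the most abundant of all rows in 6 libraries and ranked second in the other 3. Its level was 39537, 37393 and 41553 TPM in libraries 1, 2 and 3 of 2 months, 23609, 18103 and 24377 TPM at 12 months, and 15166, 13906 and 27506 TPM at 24 months. The 3 libraries of 2 months were above every older library, and the 12 and 24 month values overlapped because library 3 of 24 months was above all 3 libraries of 12 months. The mean TPM at 24 months was 47.8% and at 12 months 55.8% of that at 2 months. The log2 fold change was -1.13 ± 0.27 for 24 against 2 months (SE, limma adjusted p = 0.140) and -0.85 ± 0.27 for 12 against 2 months (adjusted p = 0.159), and neither passed the threshold of 0.05. Fold changes here and below are differences of log2(TPM + 1), in which the change of a scarce gene comes out too small, and the p-values were adjusted over all 14501 rows. In bulk libraries like these, fewer cells of a type and less RNA per cell cannot be told apart.

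The collagen IX chains, which cover the surface of the collagen II fibril, had the same order of ages. Col9a3 (chromosome 2, 180597790 to 180622189) was the second most abundant collagen gene by mean TPM over the 9 libraries. It stood at 8163, 8102 and 8260 TPM at 2 months, 6627, 5386 and 6698 at 12 months, and 3916, 4050 and 6742 at 24 months. In libraries 1 and 2 of 24 months it was below both Col1a2 (4890 and 5596 TPM) and Col1a1 (4111 and 4178 TPM). Col9a2 (chromosome 4, 121039385 to 121055322) stood at 3879, 3633 and 4530 TPM, then 2490, 2008 and 2945, and then 2002, 1619 and 2912. Col9a1 (chromosome 1, 24177610 to 24252684) stood at 2268, 2156 and 2382 TPM, then 1513, 1172 and 1984, and then 823, 822 and 2138. For each of these chains every library of 2 months was above every older one. Libraries 1 and 2 of 24 months were below all 3 libraries of 12 months, while library 3 was the highest of its age and for Col9a1 reached 94.2% of the 2 month mean. The log2 fold change for 24 against 2 months was -1.003 ± 0.323 for Col9a1 (SE, limma adjusted p = 0.222), -0.92 ± 0.22 for Col9a2 (0.149) and -0.78 ± 0.22 for Col9a3 (0.168). For 12 against 2 months it was -0.58 ± 0.32 (0.410), -0.70 ± 0.22 (0.161) and -0.40 ± 0.22 (0.399) in the same order.

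The collagen XI genes were lower in abundance. Col11a1 (chromosome 3, 114030540 to 114220718) stood at 1476, 1388 and 1670 TPM at 2 months, 1128, 883 and 1293 at 12 months, and 662, 803 and 1426 at 24 months. Its 12 month libraries were all below those of 2 months, but library 3 of 24 months lay within the range of 2 months. Col11a2 (chromosome 17, 34039437 to 34066685) stood at 1311, 1141 and 1311 TPM, then 720, 586 and 795, and then 621, 587 and 962. Here both older ages were below 2 months in every library and overlapped each other. For 24 against 2 months the log2 fold change was -0.72 ± 0.25 for Col11a1 (SE, limma adjusted p = 0.246) and -0.83 ± 0.20 for Col11a2 (0.140). For 12 against 2 months Col11a1 had -0.47 ± 0.25 (0.389), and Col11a2 had -0.85 ± 0.20 (0.0786), which came nearest to the threshold among the 7 genes.

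Col27a1 (chromosome 4, 63214004 to 63334991) was the least abundant of the 7 and had another order of ages. It stood at 198, 153 and 174 TPM at 2 months, then 138, 87.6 and 121 at 12 months, and finally 129, 145 and 170 at 24 months. The 12 month libraries were below those of 2 months, and the 24 month libraries overlapped both other ages. On the log2 scale it differed by -0.61 ± 0.19 for 12 against 2 months (SE, limma adjusted p = 0.146), -0.24 ± 0.19 for 24 against 2 months (0.577) and 0.37 ± 0.19 for 24 against 12 months (0.394).

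**Figure D1:**
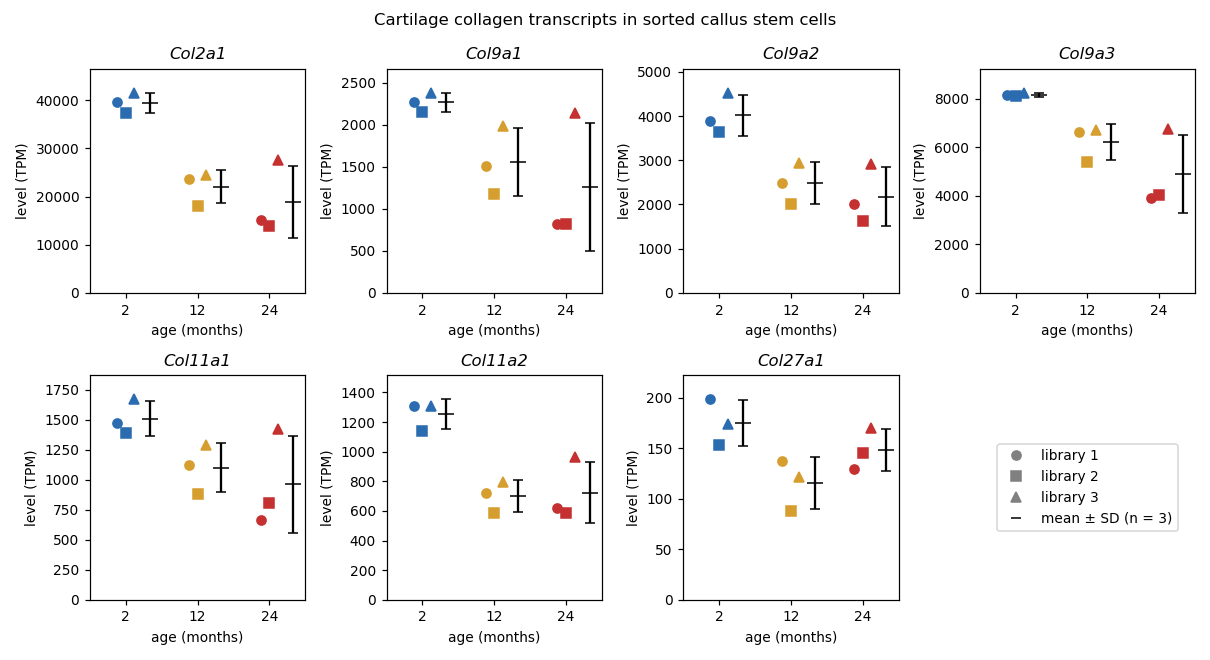
Level in TPM (vertical axis, from 0) of each cartilage collagen in the 3 libraries of each age (horizontal axis, months), with the mean and SD (n = 3) in black. For all genes but Col11a1 and Col27a1 every 2 month library is above every older one, and library 3 of 24 months (triangle) is above libraries 1 and 2 in all 7 panels.

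Counted together, none of the 7 genes was called in either direction (limma, adjusted p under 0.05), where 0.159% of all rows were at 24 against 2 months, 0.724% at 12 against 2 months and 0.455% at 24 against 12 months. For 24 against 2 months 0 of 7 were called lower, where 0.069% of all rows were. At an unadjusted p under 0.05, 6 of 7 were lower, against 6.6% of all rows, and all but Col27a1 were among them. The values of these 2 ages did not overlap for 5 of 7 genes, all lower at 24 months, against 8.97% of rows that were lower without overlap. For 12 against 2 months 0 of 7 were called lower (0.462% of all rows), 4 of 7 had an unadjusted p under 0.05 and were lower (9.65%), and 7 of 7 were lower without overlap (15.4%). Both comparisons share the 2 month libraries and are therefore not independent. For 24 against 12 months 0 of 7 were called lower (0.303%), 0 of 7 had an unadjusted p under 0.05 in either direction (5.05% of rows lower and 9.09% higher), and the ages overlapped for 7 of 7 (6.14% of rows were lower and 11.1% higher without overlap). A moderated F test for any difference among the ages called 0 of 7 (0.759% of rows), with adjusted p between 0.0835 for Col11a2 and 0.255 for Col11a1, while 7 of 7 had an unadjusted p under 0.05 (18.1% of rows).

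The median log2 fold change of the 7 genes was -0.83 for 24 against 2 months and -0.61 for 12 against 2 months, beside -0.02 and -0.07 over all rows tested. All 7 were negative in both, as were 52.1% and 57.2% of rows. For 24 against 12 months it was -0.25 beside 0.07, with 5 of the 7 negative (42.6% of rows). Without library 3 of 24 months that median was -0.58 beside 0.06, with 6 of the 7 negative (45.5% of rows), and the median for 24 against 2 months was -1.05 beside -0.04. The 95% interval for Col2a1 at 24 against 12 months ran from -0.87 to 0.31, so a further fall and a small rise are both within it. For Col11a2 in the same comparison the interval ran from -0.41 to 0.45 around a value of 0.02, whose sign turned with the scaling (-0.07 with median-of-ratios scaling).

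**Figure D2:**
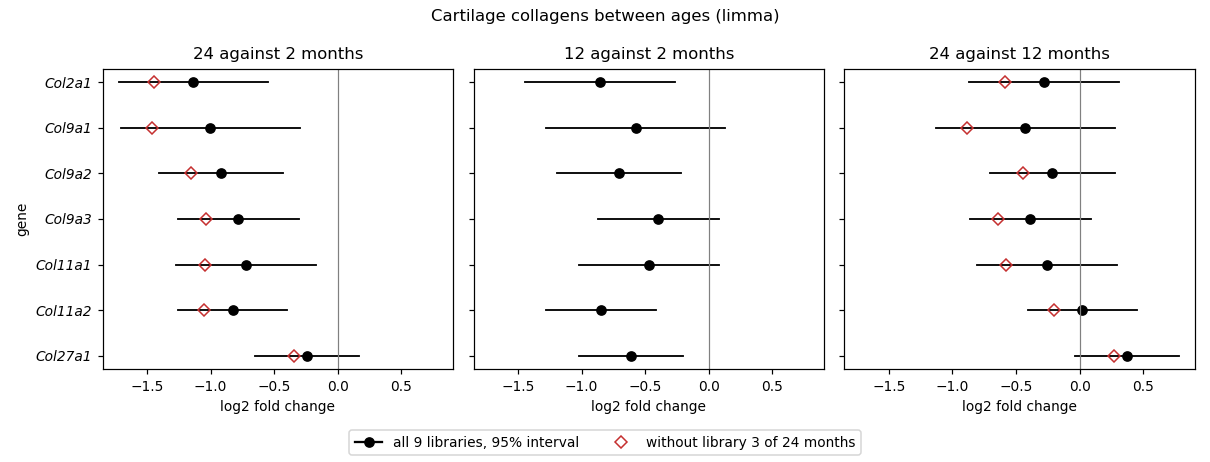
Log2 fold change (horizontal axis) of each cartilage collagen (vertical axis) in 3 comparisons of ages, with the 95% interval from limma on all 9 libraries. Open diamonds, drawn where 24 months is compared, give the value without library 3 of 24 months, which is further below 0 for all 7 genes at 24 against 2 months, from -0.34 for Col27a1 to -1.46 for Col9a1.

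At 24 months library 3 stood apart from the others. For all 7 genes it was the highest library of its age, a position it held for 37.5% of all rows tested. Its Col9a1 level was 2.60 times the mean TPM of libraries 1 and 2, its Col11a1 level 1.95 times, its Col2a1 level 1.89 times and its Col27a1 level 1.24 times. On the log2 scale the median SD of the 7 genes at 2, 12 and 24 months was 0.12, 0.28 and 0.44, beside 0.24, 0.29 and 0.34 over all rows. At 2 months these collagens thus varied less between libraries than the median row, and at 24 months more. The rows were not matched for level, and most of these genes are among the abundant ones.

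Each of the 9 libraries was left out in turn, and calls of these genes appeared in 1 case, without library 3 of 24 months. In that fit 6 of 7 genes were called lower at 24 than at 2 months, where 1.5% of all rows were called lower. Col9a1 fell by 1.46 ± 0.20 on the log2 scale (SE, limma adjusted p = 0.00792), Col2a1 by 1.44 ± 0.22 (0.0101), Col9a2 by 1.15 ± 0.20 (0.0155), Col11a2 by 1.05 ± 0.16 (0.0114), Col11a1 by 1.05 ± 0.19 (0.0173) and Col9a3 by 1.04 ± 0.17 (0.0144). Col27a1 had -0.34 ± 0.20 (0.346). In the same fit Col11a2 was called lower at 12 than at 2 months (adjusted p = 0.0198; 0.972% of rows were called lower), and Col9a1 was called lower at 24 than at 12 months (-0.89 ± 0.20, adjusted p = 0.0453; 1.34% of rows). The F test called 6 of 7 (4.66% of rows). Library 3 of 24 months was singled out by its values for these same genes, so the calls without it are no independent support. Array quality weights, which gave libraries 1 and 3 of 24 months weights of 0.357 and 0.691 and library 2 a weight of 2.18, called 5 of 7 at 24 against 2 months, all but Col11a1 and Col27a1, where 2.03% of all rows were called.

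**Figure D3:**
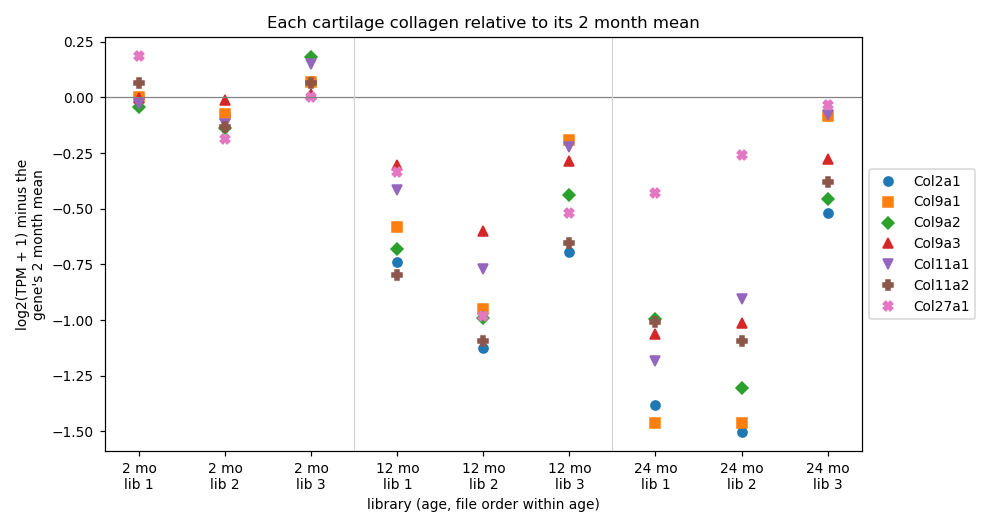
Difference of log2(TPM + 1) from the gene's own 2 month mean (vertical axis) in each library (horizontal axis, grouped by age) for the 7 cartilage collagens. Libraries 1 and 2 of 24 months hold the lowest values of 5 genes, all but Col11a2 and Col27a1 (Col2a1 at -1.38 and -1.50), and library 3 of 24 months is at -0.52 for Col2a1.

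Markers of other cell types also differed among the 24 month libraries. The summed level of the 10 chondrocyte markers, all detected at 1 TPM or more, was 11732 and 12546 TPM in libraries 1 and 2 and 19215 TPM in library 3, beside 21631 to 24773 at 2 months and 14337 to 18894 at 12 months. The 8 smooth muscle and pericyte markers, all detected, summed to 780, 1103 and 486 TPM in libraries 1, 2 and 3 of 24 months, to 171 to 279 TPM at 2 months and to 146 to 476 at 12 months. The 7 tendon and fibroblast markers, all detected, summed to 507, 301 and 191 TPM at 24 months, beside 126 to 191 at 2 months and 152 to 202 at 12 months. Of the 6 skeletal muscle markers 4 reached 1 TPM. The list summed to 42.06, 46.90 and 14.99 TPM at 24 months and to 4.98 to 11.7 at the younger ages. The muscle regulator Myod1 was listed at 0 in every library. The 8 osteoblast markers summed to 4213, 4378 and 2680 TPM at 24 months, 3300 to 3611 at 2 months and 2306 to 2824 at 12 months. Library 3 of 24 months was the lowest of its age for these 4 lists, and also for the summed 8 hypertrophic chondrocyte markers (13865, 29150 and 11918 TPM in libraries 1, 2 and 3) and the 4 erythroid markers (418, 111 and 40.7 TPM). Most of the hypertrophic sum was Spp1 and Ibsp, and its genes were split. Col10a1, Ihh, Mmp13 and Spp1 were lowest in library 3, but Ibsp, Alpl, Pth1r and Panx3 in library 1. Library 3 was the highest of its age for the endothelial list (13.7, 7.77 and 18.6 TPM), where Erg held most (8.57, 4.59 and 12.3 TPM). It was between the others for the myeloid list (35.2, 11.2 and 17.2 TPM). The 6 adipocyte and marrow stroma markers, of which 4 reached 1 TPM, summed to 93.9, 145 and 115 TPM at 24 months, to 80.4 to 136 TPM at 12 months and to 17.7 to 40.5 TPM at 2 months, so that both older ages were above 2 months in every library. Most of that sum was Fabp4 and Cxcl12, and of the listed genes Fabp4 alone was above 2 months in every older library. Fabp4 was at 11.3 to 24.7 TPM at 2 months, 73.2 to 109 at 12 months and 46.5 to 64.1 at 24 months. Cxcl12 was at 5.27 to 14.7, 5.23 to 28.2 and 45.2 to 85.4 TPM in the same order. The defining adipocyte gene Adipoq was at 0.231 TPM or less throughout. The part of these cells in the collagen values was not tested. The gated-out marker CD45 (Ptprc) reached at most 0.281 TPM, and Itgav was between 25.2 and 50.1 TPM. Other gated-out markers were higher than CD45: THY1 (Thy1) was at 0.154 to 4.27 TPM, CD105 (Eng) at 0.715 to 4.08 and 6C3 (Enpep) at 0.037 to 1.63. Thy1 and Eng were highest in library 2 of 24 months. Rows at 0 numbered 33313 in library 1 of 24 months and 29284 to 31082 elsewhere, and leaving that library out called 0 of 7 genes (0.0069% of rows in either direction at 24 against 2 months).

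The proportions of the chains were compared within each library, where the scaling of the library cancels. At 2 months Col2a1 made up 69.6, 69.3 and 69.4% of the summed TPM of the 7 genes, at 12 months 65.2, 64.1 and 63.8%, and at 24 months 65.0, 63.4 and 65.7%. The 2 month libraries were above all older ones, and the older ages overlapped. Summed together, the minor chains therefore took a larger part of a smaller total, but this did not hold for each chain. Col9a3 had mean shares of 14.4, 18.3 and 17.1% at 2, 12 and 24 months. Col11a2 had means of 2.204, 2.048 and 2.546% in that order, and its 12 month libraries were all below those of 2 months. Col9a1 stood at 3.53, 3.75 and 5.11% in libraries 1, 2 and 3 of 24 months, where its lowest share at 2 months was 3.98%. Of the 6 minor chains set against Col2a1, 2 differed among the ages in an exact permutation test over all 1680 assignments of the libraries to ages (smallest possible p = 0.00357), with p-values adjusted over the 6 ratios. A difference in a ratio shows that a pair of genes moved unequally and not which of them moved.

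Col9a3 stood at 20.6, 21.7 and 19.9% of the Col2a1 level at 2 months, 28.1, 29.8 and 27.5% at 12 months and 25.8, 29.1 and 24.5% at 24 months (exact permutation p = 0.0107, adjusted p = 0.0321). Every older library was above every library of 2 months. Col27a1 stood at 0.501, 0.409 and 0.419% of Col2a1 at 2 months, 0.584, 0.484 and 0.497% at 12 months and 0.852, 1.04 and 0.619% at 24 months (exact permutation p = 0.0107, adjusted p = 0.0321). Here the 24 month libraries were above all others, and the younger ages overlapped. Both calls depend on single libraries: the count of 2 became 0 when any of the 2 or 12 month libraries, or library 3 of 24 months, was left out. It became 3 when library 1 of 24 months was omitted and stayed at 2 when library 2 was.

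At 2, 12 and 24 months Col11a1 stood at 3.82 ± 0.17, 4.99 ± 0.28 and 5.11 ± 0.71% of Col2a1 (SD, n = 3, exact permutation adjusted p = 0.0589). Col11a2 stood at 3.17 ± 0.13, 3.18 ± 0.12 and 3.94 ± 0.39% in the same order (exact permutation adjusted p = 0.0589). For Col11a1 the 2 month libraries were below all others, and for Col11a2 the 24 month libraries were above all others, but neither ratio passed. Col9a2 stood at 10.1 ± 0.66, 11.2 ± 0.78 and 11.8 ± 1.31% (adjusted p = 0.206, exact permutation), with overlap between the ages. Col9a1 was nearly constant at 2 months, at 5.74, 5.77 and 5.73% of Col2a1, and spread from 6.41 to 8.14% at 12 months and from 5.43 to 7.77% at 24 months (adjusted p = 0.296, exact permutation).

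**Figure D4:**
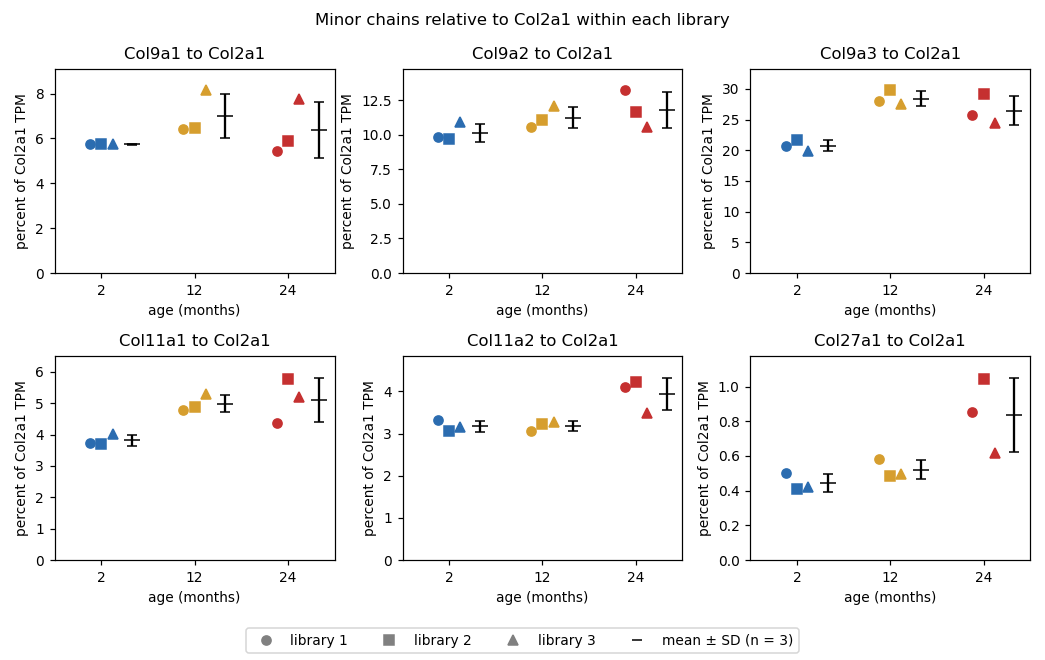
Level of each minor chain as a percent of the Col2a1 TPM of the same library (vertical axis, from 0) by age (horizontal axis, months), with points for the 3 libraries and the mean and SD (n = 3) in black. Col9a3 is between 19.9 and 21.7% at 2 months and between 24.5 and 29.8% at the older ages, and Col27a1 is highest at 24 months.

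Sister chains of the same trimer were not equal in transcript level. Within collagen IX, Col9a3 held 56.6 ± 1.98% of the summed TPM at 2 months, Col9a2 27.7 ± 1.92% and Col9a1 15.7 ± 0.17% (SD, n = 3). At 24 months the shares were 59.2 ± 2.79, 26.4 ± 2.82 and 14.3 ± 3.30% in that order. The order Col9a3, Col9a2, Col9a1 held in all 9 libraries. Col11a2 stood at 83.2 ± 5.24, 63.9 ± 2.42 and 78.1 ± 13.9% of Col11a1 at 2, 12 and 24 months. The 12 month libraries were below all others, but none of the 4 ratios between sister chains passed (exact permutation adjusted p from 0.264 to 0.636), except that the ratio of Col11a2 to Col11a1 passed without library 1 of 24 months (0.0286).

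Among the 44 collagen genes of the table, cartilage collagens held most of the transcripts. The 7 genes together took 79.5, 78.9 and 78.7% of all collagen TPM at 2 months, 75.8, 70.8 and 69.4% at 12 months, and 56.3, 55.7 and 74.1% at 24 months. Of all transcripts they held 5.69 ± 0.30, 3.42 ± 0.53 and 2.90 ± 1.11% in that order of ages (SD, n = 3), values given without a test. All other collagens together held 1.51 ± 0.10, 1.34 ± 0.30 and 1.67 ± 0.18% of all TPM. Col1a1 and Col1a2, the chains of the main bone collagen, held 0.81 ± 0.03, 0.64 ± 0.12 and 0.86 ± 0.13%. The ratio of Col2a1 to Col1a1, of cartilage to bone collagen, was 12.3, 11.8 and 12.1 in the 2 month libraries, 10.1, 8.01 and 8.89 in those of 12 months, and 3.69, 3.33 and 10.7 in those of 24 months.

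**Figure D5:**
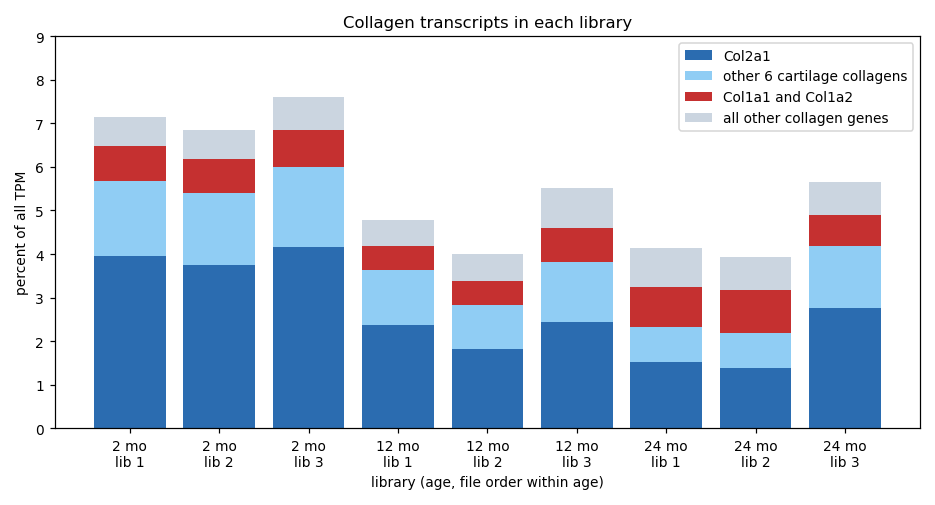
Percent of all TPM (vertical axis) held by Col2a1, the other 6 cartilage collagens, Col1a1 with Col1a2, and all other collagen genes, stacked for each library (horizontal axis, by age). The cartilage collagens hold 5.40 to 5.99% at 2 months and 2.19, 2.33 and 4.19% at 24 months, while Col1a1 with Col1a2 hold 0.565 to 0.977% and all other collagen genes 0.584 to 0.908% over the 9 libraries.

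Collagens outside the cartilage set were more often positive than negative. Of the 29 other collagen genes that were tested, 10 had a negative log2 fold change at 24 against 2 months and 19 a positive one, with a median of 0.27, and 0 were called. Over all rows 52.1% were negative and 0.159% were called. Of the 10 most abundant collagens, 5 were cartilage members, and the others were Col1a1, Col1a2, Col3a1, Col6a1 and Col6a2. At 24 against 2 months Col1a1 had a log2 fold change of 0.11 ± 0.20 (SE, limma adjusted p = 0.825), Col1a2 0.05 (0.929), Col6a1 -0.01 (0.977) and Col6a2 0.13 (0.714). Col3a1, the collagen of loose connective tissue, had 0.68 ± 0.27 (0.288). Among the 7 other fibrillar collagens all were positive at 24 against 2 months, with a median of 0.52, and 0 were called. They include Col5a1, whose chain can combine with collagen XI chains, with 0.52 ± 0.18 (0.249), and Col5a3 with 1.77 ± 0.42 (0.140). Col10a1, the collagen of hypertrophic cartilage, belongs to a list of 7 network and other collagens with a median of 0.13, 3 negative and 0 called. Its own value was -1.07 ± 0.42 (0.288), while Col12a1 and Col14a1, which bind the surface of collagen I fibrils, had 0.34 ± 0.14 (0.314) and 1.37 ± 0.44 (0.225).

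Among regulators and partners of the cartilage fibril, 2 genes passed the test. SOX9, SOX5 and SOX6 are the transcription factors that switch on Col2a1 and its partner genes. All 3 were negative at 24 against 2 months (52.1% of all rows) and 0 were called (0.159%). At 2 and 24 months Sox9 stood at 450 ± 69.8 and 286 ± 89.6 TPM (SD, n = 3), which is -0.68 ± 0.21 on the log2 scale (SE, adjusted p = 0.212 in limma). Sox6 had -0.71 ± 0.20 (0.181) and Sox5 -0.26 ± 0.25 (0.667). Of 12 matrix proteins of cartilage, all were negative (52.1% of all rows), with a median of -0.81, and 1 was called (0.069% of rows were called lower). This was Prelp, a leucine-rich proteoglycan that binds collagen, which fell from 457 ± 16.7 to 246 ± 20.5 TPM (-0.89 ± 0.13, adjusted p = 0.0355). At 12 against 2 months 2 of the 12 were called lower, Prelp (-1.28 ± 0.13, 0.00241) and Chad, a protein that binds collagen II (-1.58 ± 0.25, 0.0170), and 11 were negative. Over all rows 0.462% were called lower in that comparison and 57.2% were negative. The call of Prelp at 12 months held without any 1 library (adjusted p 0.00207 to 0.0244). Its call at 24 months was lost without any 1 of the 2 month libraries, library 3 of 12 months, or either of libraries 1 and 2 of 24 months (adjusted p 0.0595 to 0.158). That of Chad was lost without any 1 of the 2 month libraries or library 3 of 12 months (0.0519 to 0.103). Chad had -1.38 ± 0.25 at 24 against 2 months (limma adjusted p = 0.0768). Acan, the main cartilage proteoglycan, had -0.69 ± 0.18 at 24 against 2 months (0.161).

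Enzymes that fold, process and bind collagen did not pass in any comparison of ages. Of 15 folding and modification genes 13 were negative at 24 against 2 months, with a median of -0.32, where 52.1% of all rows were negative. Those of smallest p were the lysyl hydroxylase Plod1 (-0.51 ± 0.17, limma adjusted p = 0.230), the prolyl 3-hydroxylase P3h2 (-0.75 ± 0.24, 0.219) and the collagen galactosyltransferase Colgalt2 (-0.81 ± 0.28, 0.241). Of 11 tested genes of propeptide removal and crosslinking 6 were negative and 5 positive (median -0.21). The lysyl oxidase Loxl4 had -1.32 ± 0.35 (0.161), while the procollagen peptidase Adamts2 had 1.45 ± 0.31 (0.121) and Loxl1 1.05 ± 0.39 (0.264). Of 11 tested receptors and degrading enzymes 5 were negative and 6 positive (median 0.22). Itga10, the integrin chain of cartilage that binds collagen II, had -1.10 ± 0.29 (0.165), Itga11, an integrin chain of fibroblasts that binds collagen I, 1.10 ± 0.30 (0.166), and the collagen-degrading protease Ctsk 0.65 ± 0.16 (0.150).

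The genes whose profile over the 9 libraries was nearest to that of Col2a1 were sought among rows with a mean of at least 10 TPM. Each gene was centred on its own mean of log2(TPM + 1), and nearness was the root mean square distance in log2 units, given as a description. The nearest row was Col9a2, at 0.13, and Col11a2 was the third at 0.16, Col9a1 the ninth at 0.19, Col9a3 17th at 0.21 and Col11a1 19th at 0.22 of 6972 rows, whose median was 0.59. Col27a1 ranked 927th, at 0.43. The 8 nearest genes outside the set were Scin, Colgalt2, Susd5, Peg3, Aff3, Smoc2, Crispld1 and Hapln1, at 0.16 to 0.20. Hapln1 encodes the link protein that ties aggrecan to hyaluronan, and its mean levels were 772, 489 and 423 TPM at 2, 12 and 24 months (n = 3 libraries each). Within the set the closest pairs were Col9a3 with Col11a1 and Col9a2 with Col11a2, each at 0.13, and the farthest was Col9a1 with Col27a1, at 0.50.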

How the data were processed

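The authors deposited 1 table of log2 values, with 1 column per library. Each column totals 1000000 once the log is undone and 1 subtracted, which is why they are read as log2(TPM + 1). Per the labels' protocols, cDNA was amplified from low input RNA of the sorted cells. Per the submitters' processing notes, Salmon and GRCm38.p6 were used. Not given in the sources used here are the annotation release, the strand setting and how transcripts were summed. Because TPM carries no read totals, the depth of each library is unknown (the labels give only an average over samples) and no counting interval was given. Column headers name the age only, so libraries were numbered 1 to 3 as the table lists them and no pairing was made.

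Rows with at least 1 TPM in 3 libraries were fitted with limma 3.58.1 (R 4.3.3), with 1 model of the 3 ages, an intensity trend, 6 residual degrees of freedom, two-sided tests and Benjamini-Hochberg adjustment over 14501 rows. The fit was tested on simulated data. Ratios were tested by exact permutation. Members and lists were chosen with earlier results of these data known. All 7 members were named, and of each list up to 3 genes of smallest p at 24 against 2 months, plus Sox9, Acan, Col10a1, Col1a1 and Col5a1, the 10 collagens of highest mean TPM and the 8 rows most like Col2a1. Alternatives changed the offset, filter, scaling, variance model, libraries and threshold.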

Additional observations from a re-analysis of the deposited data

How the results depend on the processing

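Of 21 alternatives, 13 could move a fold change in a given comparison, and in those all 7 genes kept a negative value at 24 against 2 and at 12 against 2 months. The count of members called, 0 in each comparison, was 5 at 24 against 2 months (2.03% of all rows), 1 at 12 against 2 months (2.55%) and 4 in the F test (4.74%) with array quality weights. At 12 against 2 months it was 1 with only the 6 libraries of those ages (1.86% of rows) and 1 at a threshold of 0.10 (2.79%), where the F test also called 1 (2.79%). Leaving out a library gave 0 to 6 members at 24 against 2 months and in the F test, and 0 to 1 in the other comparisons. For the ratios it gave 0 to 3 of 6 and, for sister chains, 0 to 1 of 4. Col11a2 at 24 against 12 months, 0.02, turned to -0.00062 with quantile normalization, -0.072 with median-of-ratios scaling, -0.015 when rescaled without mitochondrial and the 50 highest rows and -0.13 with weights, and ranged from -0.20 to 0.15 when a library was left out. The log2 ratio at 24 minus 2 months ranged from -0.021 to 0.24 for Col9a1 to Col2a1 and from -0.31 to 0.11 for Col9a1 to Col9a2. The cause was not tested. Quantile normalization sets the highest rows of all libraries to nearly the same value, and there Col2a1 had -0.29 at 24 against 2 months. Over all rows the counts called were 23, 105, 66 and 110 (24 against 2, 12 against 2, 24 against 12, F test), and ranged over the alternatives from 1 to 430, 5 to 405, 1 to 345 and 0 to 687. Calls were 38 higher and 67 lower at 12 against 2 months, but 58 and 57 with median-of-ratios scaling, and 22 and 44 at 24 against 12 months, but 18 and 82 with that scaling and 20 and 70 with quantile normalization. No paired analysis was possible because the column headers carry no replicate number. Without counts, the depth behind the values of low genes is unknown.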
